A study of Mus musculus with 8 samples.

Results

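Phlda2 and 8 other imprinted genes, Cdkn1c, H19, Igf2r, Grb10, Igf2, Mest, Peg3 and Plagl1, were followed across 8 arrays of pooled mouse embryos at the late 2-cell stage. The genes were selected on earlier results of these same arrays, with Phlda2 taken for its low level in embryos injected with both Trim21 mRNA and an anti-COPS3 antibody, and the others taken as imprinted genes to set beside it. Of the 9 genes listed, 8 had a row of their own among the 30706 genes measured. The only row of H19 also names Mir675, a microRNA made from the H19 transcript, so no value is given for H19.

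Each array carried RNA of a pool of 100 embryos from B6C3F1 x CD1 matings. The zygotes were fertilised in vivo, taken from the oviducts of hormone-stimulated females and, in 3 of the 4 groups, injected into the ooplasm at the mid-pronuclear stage. In the full treatment the zygotes received Trim21 mRNA plus an anti-COPS3 antibody. In the antibody-alone group they received the anti-COPS3 antibody without the mRNA, in the Trim21 mRNA group the mRNA without the antibody, and the non-manipulated group was left in the incubator. Every group held 2 pools. The TRIM21 protein recognises antibodies inside cells and marks them, and whatever they are bound to, for breakdown by the proteasome. COPS3 belongs to the COP9 signalosome, a complex that takes NEDD8 off cullin ubiquitin ligases. Embryos were cultured for 28 h by the protocol, whereas their age label gives 24 h in vitro. By the labels, division to the 2-cell stage was stunted in both groups given the antibody, where many zygotes had not divided, and normal in the Trim21 mRNA and non-manipulated groups. No group received a control antibody or a mock injection. A difference between an injected group and non-manipulated embryos therefore holds the injection as well.

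Imprinted genes are expressed mainly from the allele of a single parent. For many of them, though not all, the parental copies carry different DNA methylation at imprinting control regions that is kept through the reprogramming of the early embryo. Phlda2, Cdkn1c, H19, Igf2r and Grb10 are expressed mainly from the maternal allele in the mouse, and several of them restrain growth of the fetus or placenta. Igf2, Mest, Peg3 and Plagl1 are expressed mainly from the paternal allele, and Igf2, Mest and Peg3 promote growth. At the 2-cell stage an embryo holds transcripts stored in the egg as well as transcripts of its newly active genome, and an imprinted gene need not yet be expressed from a single allele. The arrays do not tell the parental alleles apart, nor stored from new transcripts.

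Phlda2 and Igf2r, the members with the widest differences between groups, are shown by their promoters, which lie on chromosomes 7 and 17. The 300 bases span the start of each gene in RefSeq's GRCm38.p6 annotation, at chr7:143502475-143502774 on the minus strand for Phlda2 and chr17:12769657-12769956 on the minus strand for Igf2r, written 5′ to 3′ with each CG in capitals.
Phlda2: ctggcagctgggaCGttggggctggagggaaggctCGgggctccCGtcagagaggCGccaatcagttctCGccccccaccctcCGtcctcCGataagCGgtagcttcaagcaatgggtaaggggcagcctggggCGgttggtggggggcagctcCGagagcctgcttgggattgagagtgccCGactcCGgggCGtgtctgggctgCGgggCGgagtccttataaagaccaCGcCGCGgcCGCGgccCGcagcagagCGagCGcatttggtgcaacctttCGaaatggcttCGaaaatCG
Igf2r: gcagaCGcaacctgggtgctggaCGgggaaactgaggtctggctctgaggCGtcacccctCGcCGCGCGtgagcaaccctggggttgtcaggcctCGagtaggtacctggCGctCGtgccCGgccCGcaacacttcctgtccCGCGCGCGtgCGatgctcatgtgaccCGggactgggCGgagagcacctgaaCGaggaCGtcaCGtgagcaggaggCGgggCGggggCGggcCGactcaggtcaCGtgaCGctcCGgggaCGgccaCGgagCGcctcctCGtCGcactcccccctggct
Phlda2 had 26 CG in this window and Igf2r had 34, against a median of 7 over 32851 mouse promoters of the same length, and 16.9% and 7.73% of those promoters held as many or more. The letters GGGCGG, searched on both strands, occurred in 2 places in Phlda2 and 3 in Igf2r (35.7% of all promoters hold them). TATAAA occurred in Phlda2 alone of this pair (13.6% of all promoters), and TGACGT in Igf2r alone (7.51% of all promoters). These are matches of letters and not measured sites. Promoters of 7 of the 8 measured genes were in the RefSeq table, and H19 was not looked up there.

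All levels are deposited log2 values, so a step of 1 is a doubling. A level compares the same gene between arrays, not different genes with each other. A gene was taken to be at background on an array when it did not exceed the 95th percentile of 1229 olfactory receptor genes there, which was 6.0 and 6.23 in the full treatment, 6.03 and 5.55 with antibody alone, 5.37 and 5.32 with Trim21 mRNA, and 5.22 and 5.23 in non-manipulated embryos. The array medians lay between 4.75 and 5.29. Trim21 itself stood at 10.4 and 10.3 in the full treatment and at 9.77 and 10.14 with Trim21 mRNA, against 6.76 and 6.37 with antibody alone and 6.27 and 5.65 in non-manipulated embryos. Pools of a group correlated across genes at 0.986 in the full treatment, 0.956 with antibody alone, 0.996 with Trim21 mRNA and 0.997 in non-manipulated embryos, and 809, 4615, 97 and 49 genes differed by more than 1 log2 unit between those pools. The antibody-alone pools thus stood apart from each other. All 7 late 2-cell markers and all 8 oocyte markers measured were above background in every pool.

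Differences are given ± the standard error of limma's fit over all 8 arrays, with n = 2 pools per group, and a gene was called at a Benjamini-Hochberg adjusted p under 0.05 over all 30706 genes. The groups were treated on separate days, each with both of its pools on that day, so day and group cannot be told apart and p measures only the spread between pools of a single day. In bulk RNA of this kind, fewer cells that express a gene and less RNA per cell cannot be told apart either.

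Phlda2, which encodes a pleckstrin homology domain protein that restrains placental growth, was the member with the largest difference. Its level was 8.00 and 7.75 in the full treatment, 12.79 and 12.82 with antibody alone, 12.76 and 12.85 with Trim21 mRNA, and 12.27 and 11.77 in non-manipulated embryos. Only the full-treatment pools were low, and even there Phlda2 exceeded background. The mean in the full treatment was 4.93 ± 0.20 below that in the Trim21 mRNA group (a difference of -4.93, or 30.5-fold), 4.93 below that with antibody alone, and the difference from non-manipulated embryos was -4.14. These differences are the reason the gene was chosen and are given with no test.

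The antibody without Trim21 mRNA was not accompanied by a low Phlda2. With antibody alone the difference from non-manipulated embryos was 0.785 ± 0.20, which was not called (adjusted p = 0.0591 by limma; 1.72-fold). After each array was centred on its median the difference was 0.495 (adjusted p = 0.289), and in a fit of those 2 groups alone it was not called either (adjusted p = 0.203), whereas it was called after quantile normalization, where it was 1.06 (adjusted p = 0.0221). Both antibody-alone pools lay above both non-manipulated pools. The difference between the Trim21 mRNA and non-manipulated groups was also 0.785. In order of mean level, the full treatment came lowest at 7.88 ± 0.18 (SD), then non-manipulated embryos at 12.02 ± 0.35, then antibody alone at 12.81 ± 0.02 and Trim21 mRNA at 12.81 ± 0.06 (SD, n = 2 each). The antibody-alone and Trim21 mRNA means did not differ beyond the spread of their pools.

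Igf2r encodes the receptor that takes IGF2 from the cell surface to lysosomes and carries mannose 6-phosphate tagged enzymes there. Igf2r had levels of 6.62 and 6.87 in the full treatment, 7.84 and 8.15 with antibody alone, 10.91 and 10.60 with Trim21 mRNA, and 10.60 and 10.71 in non-manipulated embryos. Both groups given the antibody were low, the full treatment lowest, and no pool of either overlapped with the pools that received none. Against Trim21 mRNA, Igf2r in the full treatment fell by 4.01 ± 0.19 (16.1-fold, adjusted p = 6.5e-05 by limma). Against non-manipulated embryos, the level with antibody alone fell by 2.66 ± 0.19 (6.32-fold, adjusted p = 0.00189), a call lost in a fit of those 2 groups alone, where the difference was the same (adjusted p = 0.0652). Its level in the full treatment lay below the array's 99th percentile of olfactory receptor genes (7.02 and 7.05), a stricter bound that Igf2r passed in the other groups.

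Igf2r also differed between the groups that both received the antibody. It was 1.25 ± 0.19 lower in the full treatment than with antibody alone (a difference of -1.25, or 2.38-fold, adjusted p = 0.0066), a call lost in a fit of those 2 groups alone (adjusted p = 0.0732). Between Trim21 mRNA and non-manipulated embryos the difference was 0.10 ± 0.19 (adjusted p = 0.971). The interaction, here full treatment against Trim21 mRNA minus antibody alone against non-manipulated embryos, was -1.35 ± 0.27 (adjusted p = 0.047 by limma). It was called in some of the alternative fits only, and its second term holds the injection as well as the antibody. For Phlda2 the same quantity was -5.71, given with no test.

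**Figure D1:**
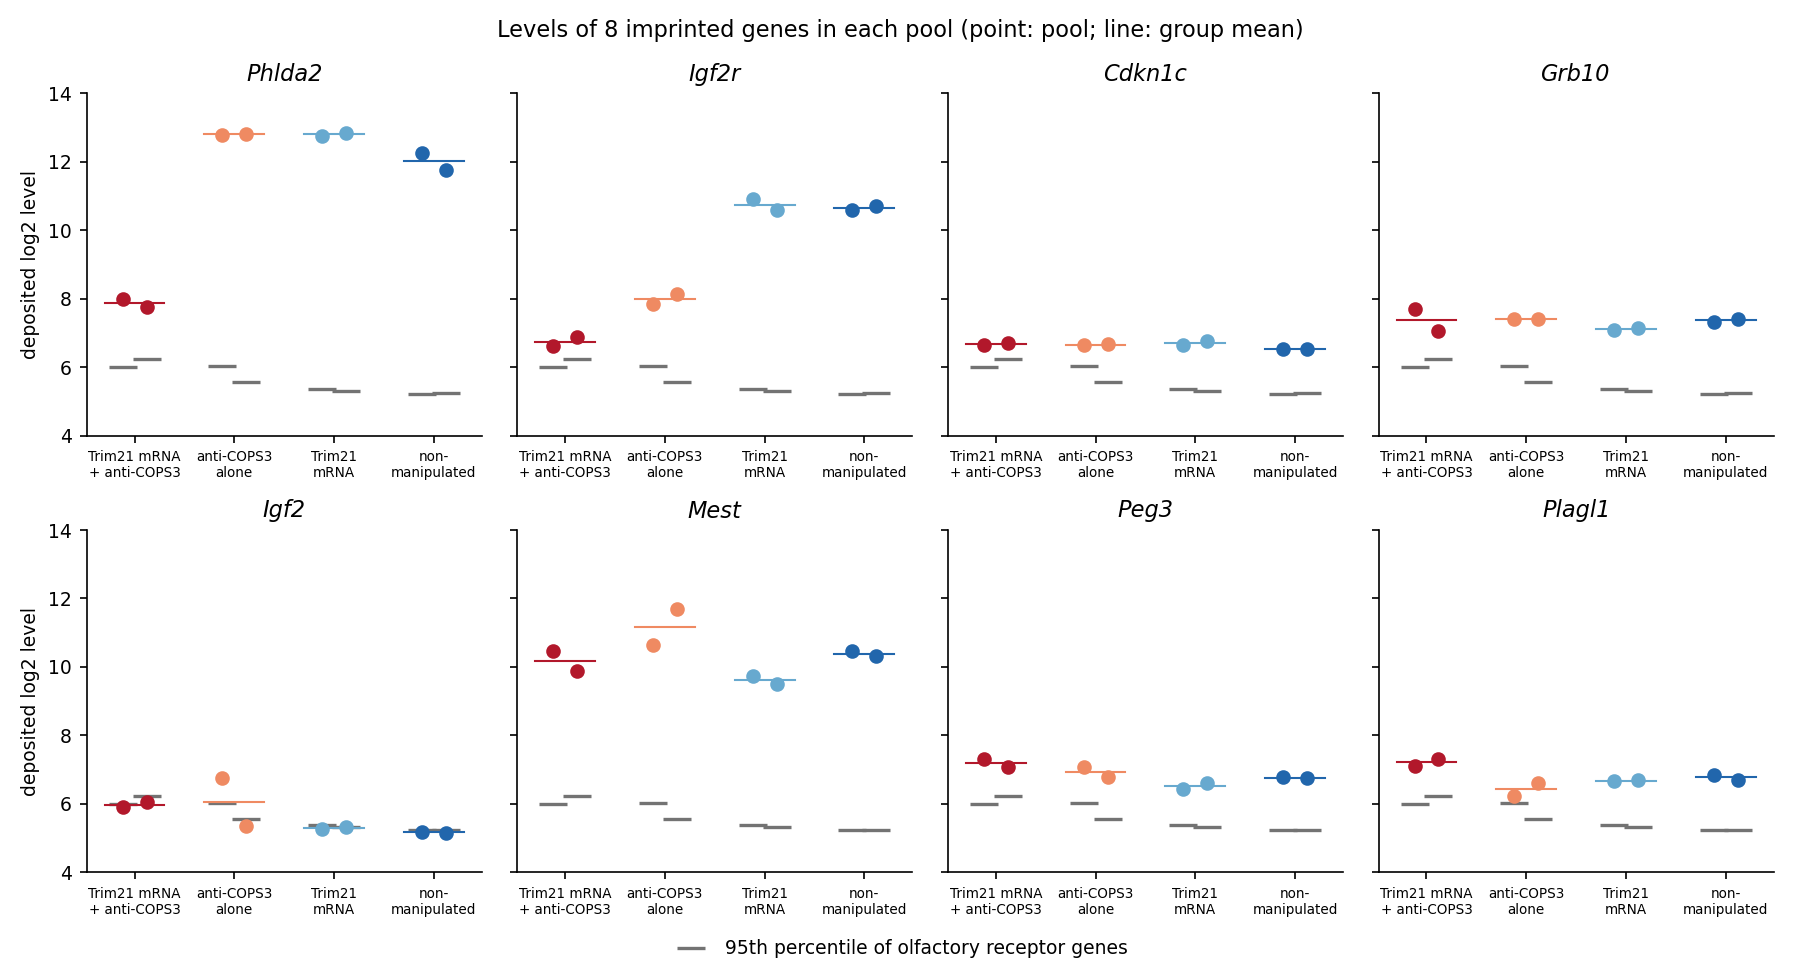
Deposited log2 levels of 8 imprinted genes in each pool (points), with group means (coloured lines) and the background level of each array (grey dashes, 95th percentile of olfactory receptor genes), levels being comparable within a panel only. Phlda2 is low in the 2 full-treatment pools (8.00 and 7.75), and Igf2r is low in the full-treatment and the antibody-alone pools.

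The other maternally expressed members with a value, Cdkn1c and Grb10, did not pass the test in any comparison. Cdkn1c, an inhibitor of cyclin-dependent kinases whose gene lies close to Phlda2, had levels of 6.66 and 6.71 in the full treatment, 6.64 and 6.68 with antibody alone, 6.64 and 6.76 with Trim21 mRNA, and 6.52 and 6.53 in non-manipulated embryos. Its 8 values all lay between 6.52 and 6.76. The difference was -0.015 ± 0.14 between the full treatment and Trim21 mRNA (adjusted p = 0.943) and 0.135 ± 0.14 between antibody alone and non-manipulated embryos (adjusted p = 0.518).

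Grb10 encodes an adaptor that binds the insulin and IGF1 receptors and damps their signal. It had levels of 7.70 and 7.07 in the full treatment, 7.40 and 7.42 with antibody alone, 7.10 and 7.15 with Trim21 mRNA, and 7.32 and 7.41 in non-manipulated embryos. The full-treatment pools lay 0.63 apart and spanned all values of the other groups. The difference between the full treatment and Trim21 mRNA was 0.26 ± 0.22 (adjusted p = 0.399).

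Among the paternally expressed members, Peg3 and Plagl1 had small differences that were called in 1 comparison each in the main fit of all 8 arrays. Peg3, a zinc finger protein, had levels of 7.30 and 7.06 in the full treatment, 7.06 and 6.77 with antibody alone, 6.44 and 6.60 with Trim21 mRNA, and 6.77 and 6.75 in non-manipulated embryos. The full-treatment pools were highest, the lower of them level with an antibody-alone pool, and the Trim21 mRNA pools were lowest. Peg3 rose in the full treatment against Trim21 mRNA by 0.66 ± 0.17 (1.58-fold, adjusted p = 0.0361 by limma). The median difference of all genes in that comparison was 0.21, and after each array was centred on its median Peg3 differed by 0.325 and was not called (adjusted p = 0.258). The call was also lost without either array of the full treatment, the Trim21 mRNA group or the non-manipulated group (adjusted p between 0.061 and 0.222).

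Plagl1, a zinc finger transcription factor that regulates other imprinted genes, had levels of 7.11 and 7.32 in the full treatment, 6.23 and 6.60 with antibody alone, 6.65 and 6.70 with Trim21 mRNA, and 6.84 and 6.70 in non-manipulated embryos. The full-treatment pools were the highest and the antibody-alone pools the lowest. Plagl1 rose in the full treatment against antibody alone by 0.80 ± 0.18 (1.74-fold, adjusted p = 0.0288 by limma). That call was lost after median centring (adjusted p = 0.167) and in a fit of those 2 groups alone (adjusted p = 0.219). It was lost as well without any single array of the other 3 groups (adjusted p between 0.0584 and 0.144), while it held without either antibody-alone array. Against Trim21 mRNA the difference was 0.54 ± 0.18 (adjusted p = 0.0759 by limma). It was called after quantile normalization (0.81, adjusted p = 0.0217) and cyclic loess (0.68, adjusted p = 0.0302). It was not called after median centring (0.205, adjusted p = 0.65).

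Mest, an enzyme of the alpha/beta hydrolase family that is abundant in mesoderm, had levels of 10.45 and 9.88 in the full treatment, 10.63 and 11.69 with antibody alone, 9.74 and 9.51 with Trim21 mRNA, and 10.45 and 10.32 in non-manipulated embryos. The antibody-alone pools were the highest but lay 1.06 apart, and the Trim21 mRNA pools were the lowest. No difference was called in the main fit: 0.54 ± 0.36 between the full treatment and Trim21 mRNA (adjusted p = 0.295), 0.775 ± 0.36 between antibody alone and non-manipulated embryos (adjusted p = 0.212), and -0.995 ± 0.36 between the full treatment and antibody alone (adjusted p = 0.126). The first of these was called by limma after quantile normalization (1.25, adjusted p = 0.0334) and cyclic loess (1.16, adjusted p = 0.0372). After median centring it was 0.205 and not called (adjusted p = 0.826).

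Igf2, the fetal growth factor that IGF2R binds, was the member at background. It had levels of 5.91 and 6.04 in the full treatment, 6.74 and 5.34 with antibody alone, 5.27 and 5.31 with Trim21 mRNA, and 5.18 and 5.14 in non-manipulated embryos. A single pool, antibody alone replicate 1, exceeded its background level (6.74 against 6.03), and the other antibody-alone pool lay 1.40 lower. No fold is given for Igf2. Its difference between the full treatment and Trim21 mRNA was 0.685 ± 0.40 (adjusted p = 0.245), and the background levels of those arrays also differed (6.0 and 6.23 in the full treatment against 5.37 and 5.32 with Trim21 mRNA). The other 7 measured members were above background in both pools of every group.

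Taking the members that could be tested, the full treatment against Trim21 mRNA gave 1 of 7 higher (Peg3) and 1 of 7 lower (Igf2r), where 8.72% of all genes were called higher and 14.5% lower. Antibody alone against non-manipulated embryos gave 0 of 8 higher and 1 of 8 lower (Igf2r), where 2.76% and 7.29% of all genes were called. The full treatment against antibody alone gave 1 of 7 higher (Plagl1) and 1 of 7 lower (Igf2r), where 4.37% and 10.5% of all genes were called. The interaction gave 0 of 7 above and 1 of 7 below zero (Igf2r), where 0.625% and 3.46% of all genes were called. Trim21 mRNA against non-manipulated embryos gave 0 of 7 members, also 0 at an unadjusted p under 0.05, and, with limma, 0.00326% of all genes higher (1 gene) and 0.0% lower, against 793 higher and 1135 lower at an unadjusted p under 0.05 and 2520 called in a fit of those 2 groups alone. Mest, with a difference of -0.76, was the member called in that fit (adjusted p = 0.0329). These counts are too small to set the members apart from all genes. The median difference of the tested members was 0.54 in the full treatment against Trim21 mRNA (0.21 over all genes) and 0.145 with antibody alone against non-manipulated embryos (0.18 over all genes). Over the 19110 genes with a mean level of at least 5, the median was 0.005 and -0.02 in these comparisons. Of those genes, 2119 were called higher and 4614 lower in the first, and 895 higher and 2508 lower in the second.

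**Figure D2:**
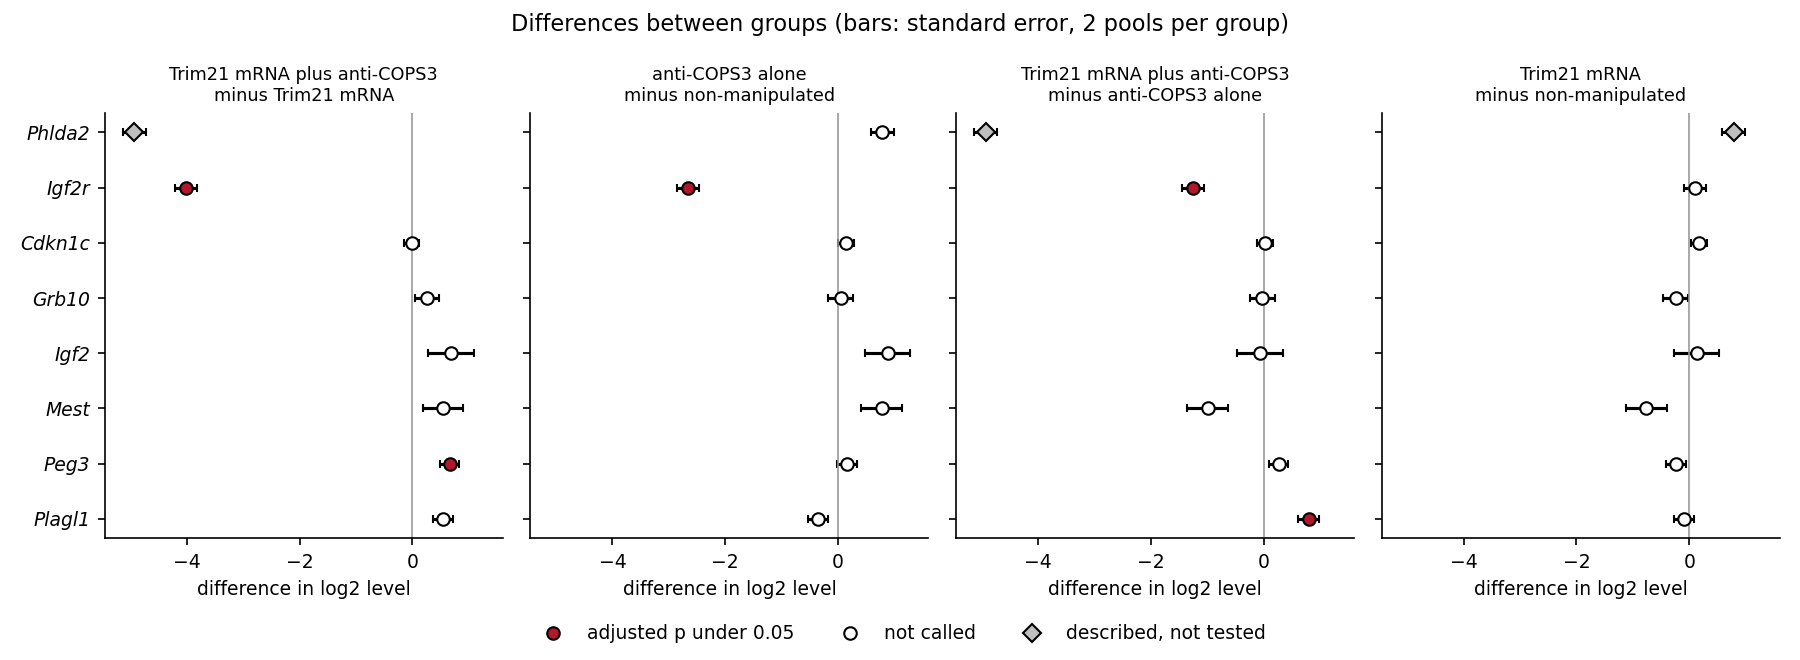
Differences in log2 level between groups for 8 imprinted genes, as points with the standard error of limma's fit (2 pools per group), filled red where the adjusted p was under 0.05 and grey where the gene was described with no test. Igf2r is called lower in each of the 3 comparisons that involve the antibody, and the differences of the members other than Phlda2 and Igf2r all lie within 1 log2 unit of zero.

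The genes next to Phlda2 and Igf2r on the chromosome were looked at after the members' values were known, with 5 measured genes taken on each side in RefSeq's order. Phlda2 lies in an imprinted domain on chromosome 7 whose maternal expression depends on the imprinting centre that holds the promoter of the noncoding RNA Kcnq1ot1. None of its 10 neighbours was called in the full treatment against Trim21 mRNA or with antibody alone against non-manipulated embryos, where 8.72% and 2.76% of all genes were called higher and 14.5% and 7.29% lower. Their differences in the full treatment against Trim21 mRNA lay between -0.175 and 0.775, and 3 of the 10 (Kcnq1, Cdkn1c and Nap1l4) were above background in all 8 pools while 5, with Kcnq1ot1 and the transporter gene Slc22a18 among them, were above it in none. Nap1l4, a histone chaperone gene next to Phlda2, had levels of 13.91 and 13.20 in the full treatment, 13.43 and 14.03 with antibody alone, 13.66 and 13.63 with Trim21 mRNA, and 14.26 and 14.19 in non-manipulated embryos. It was high in every pool, with a difference of -0.09 ± 0.29 between the full treatment and Trim21 mRNA (adjusted p = 0.83).

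Around Igf2r on chromosome 17, 2 of 10 neighbours were lower and 1 was higher in the full treatment against Trim21 mRNA, shares close to the 14.5% lower and 8.72% higher of all genes, and none was called with antibody alone against non-manipulated embryos. Pnldc1, which encodes an exonuclease that trims piRNAs, had levels of 8.05 and 8.43 in the full treatment, 11.87 and 11.39 with antibody alone, 11.73 and 11.61 with Trim21 mRNA, and 12.21 and 12.22 in non-manipulated embryos. Only the full-treatment pools were low, unlike Igf2r, which was low with antibody alone as well. In the full treatment against Trim21 mRNA Pnldc1 fell by 3.43 ± 0.22 (adjusted p = 0.000113) and differed by -0.585 ± 0.22 between antibody alone and non-manipulated embryos (adjusted p = 0.142). Mrpl18, a mitochondrial ribosomal protein gene, fell by 1.10 ± 0.19 (adjusted p = 0.00615, or 0.0658 without Trim21 mRNA replicate 1). Airn, the noncoding RNA that runs antisense to Igf2r and silences it on the paternal allele in later embryos, was above background in no pool, and Mas1, the neighbour called higher (0.655 ± 0.19, adjusted p = 0.049), was above background in none either.

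**Figure D3:**
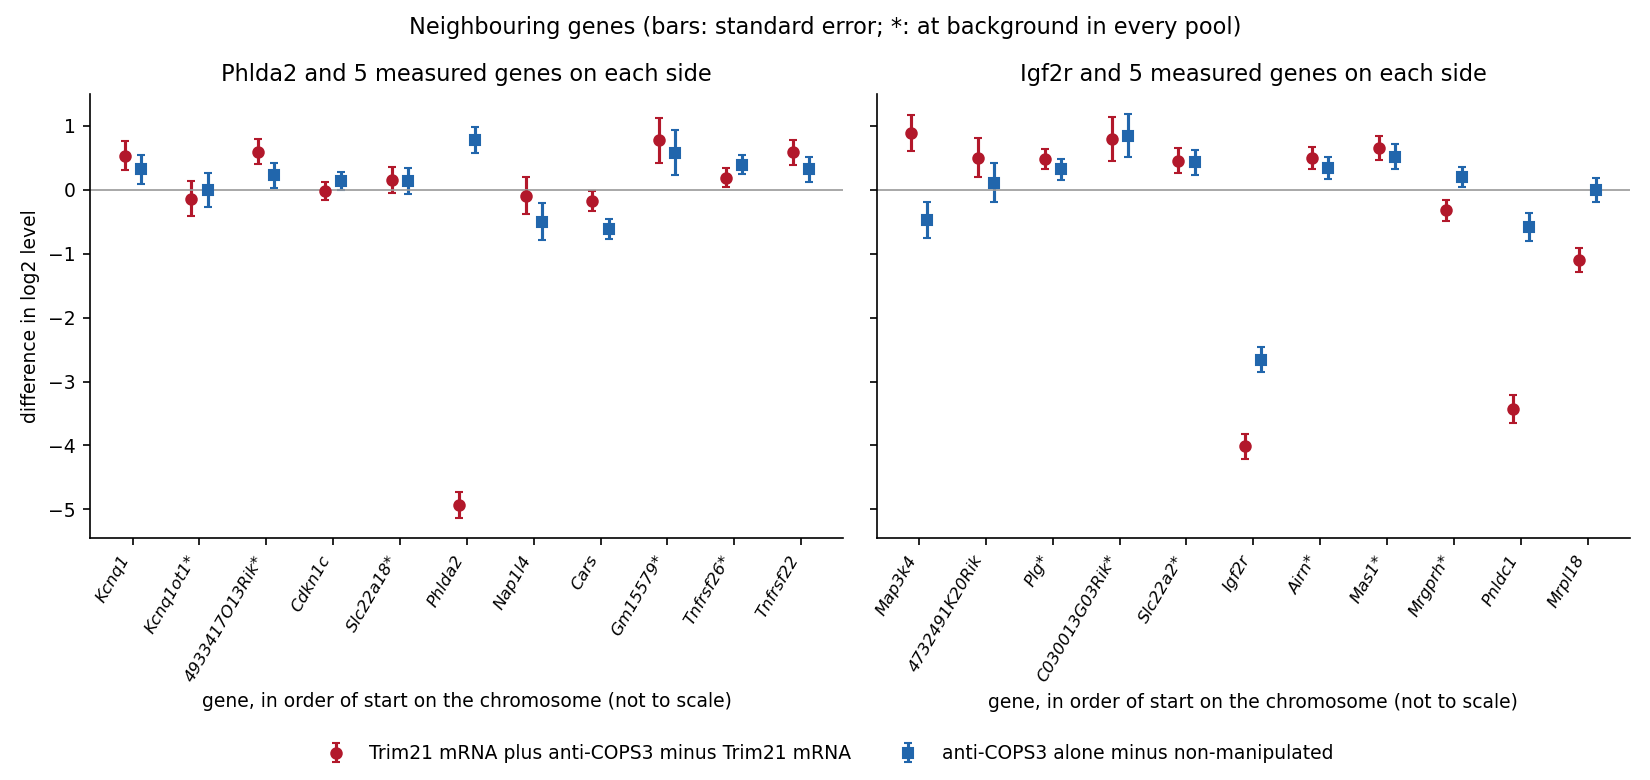
Differences in log2 level, with standard errors, for Phlda2 and Igf2r and the 5 measured genes on each side of each, in chromosome order and not to scale, for the full treatment minus Trim21 mRNA (red) and antibody alone minus non-manipulated (blue). Around Phlda2 the red points other than its own lie between -0.175 and 0.775, and beside Igf2r the gene Pnldc1 is low in red only.

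The genes whose levels were most like those of Phlda2 were sought among 1055 genes with a mean level of at least 6 and a range over arrays of at least 3. By Pearson's r over the 8 arrays, the 5 closest were Dppa5a, a gene of early embryos and germ cells (0.977), Mocs3, an enzyme of molybdenum cofactor synthesis (0.977), Necap1, a clathrin coat protein (0.976), Haus2, a subunit of the augmin complex of the spindle (0.976) and Cbwd1 (0.975), and 37 genes exceeded 0.95. These values are a description over arrays that share groups and days. Dppa5a had levels of 14.19 and 13.86 in the full treatment, 18.06 and 18.03 with antibody alone, 18.27 and 18.30 with Trim21 mRNA, and 18.38 and 18.33 in non-manipulated embryos. As with Phlda2, only the full-treatment pools were low, which follows from picking the gene by its likeness to Phlda2. For Igf2r the same search gave 197 of 1055 genes over 0.95.

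Other imprinted genes were taken from lists of maternally and paternally expressed genes that leave out the members. Of 28 maternally expressed genes listed, 24 were measured and 15 were above background in at least 1 pool. In the full treatment against Trim21 mRNA 1 of the 24 rose and 1 fell, where 8.72% of all genes rose and 14.5% fell (median difference 0.36, against 0.21 over all genes). Antibody alone against non-manipulated embryos gave 1 that rose and 2 that fell, where 2.76% of all genes rose and 7.29% fell (median 0.22, against 0.18). Ago2, an Argonaute protein that cuts the targets of small RNAs, is the gene that fell in both. It had levels of 8.35 and 8.69 in the full treatment, 8.74 and 9.02 with antibody alone, 11.80 and 11.55 with Trim21 mRNA, and 11.24 and 11.33 in non-manipulated embryos. Every pool given the antibody was low. The difference was -3.15 ± 0.19 in the full treatment against Trim21 mRNA (adjusted p = 0.000104) and -2.40 ± 0.19 with antibody alone against non-manipulated embryos (adjusted p = 0.0023, or 0.0652 in a fit of those 2 groups alone). Tssc4, a gene of the Phlda2 domain, fell by 1.235 ± 0.26 with antibody alone (adjusted p = 0.0318), and Dcn, called higher there (0.81 ± 0.18, adjusted p = 0.036), was above background in no pool. The calls of Tssc4 and Dcn were lost in 8 and 9 of the alternative fits. Ampd3, an AMP deaminase, was the gene that rose in the full treatment against Trim21 mRNA (1.36 ± 0.26, adjusted p = 0.0103), a call lost after median centring and without Trim21 mRNA replicate 1, Trim21 mRNA replicate 2 or full-treatment replicate 1 (adjusted p at most 0.105).

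Of 30 paternally expressed genes listed, 26 were measured and 14 were above background in at least 1 pool. In the full treatment against Trim21 mRNA 0 rose and 4 of 26 fell, a share close to the 14.5% of all genes (median 0.035). Antibody alone against non-manipulated embryos gave 0 that rose and 2 of 26 that fell, close to the 7.29% of all genes (median -0.01). Xist, the noncoding RNA that silences an X chromosome and comes from the paternal X in early mouse embryos, had levels of 6.83 and 6.52 in the full treatment, 7.28 and 7.11 with antibody alone, 9.83 and 8.83 with Trim21 mRNA, and 8.89 and 8.99 in non-manipulated embryos. The pools given the antibody were all below the pools that received none. The difference was -2.65 ± 0.32 in the full treatment against Trim21 mRNA (adjusted p = 0.00135). With antibody alone against non-manipulated embryos it was -1.745 ± 0.32 (adjusted p = 0.0202, and at most 0.144 over 15 alternative fits, of which 3 lost the call). The share of female embryos in a pool is not given in the labels and its part in this was not tested.

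The remaining paternally expressed genes called in the full treatment against Trim21 mRNA were Jade1, a subunit of a histone acetyltransferase complex (-1.945 ± 0.38, adjusted p = 0.0119), Mcts2, a retrogene of a translation factor (-1.525 ± 0.32, adjusted p = 0.0151), and Gab1, a docking protein of receptor tyrosine kinases (-1.605 ± 0.34, adjusted p = 0.0161). Each of these 3 calls was lost without Trim21 mRNA replicate 1, that of Jade1 also without any other array of this pair of groups, that of Mcts2 without full-treatment replicate 2, and that of Gab1 without Trim21 mRNA replicate 2 or full-treatment replicate 1. Over all alternatives their adjusted p was at most 0.0794, 0.113 and 0.0978 in that order. Jade1 fell with antibody alone against non-manipulated embryos as well (-1.72 ± 0.38, adjusted p = 0.0374), a call lost in 10 of 15 alternative fits.

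**Figure D4:**
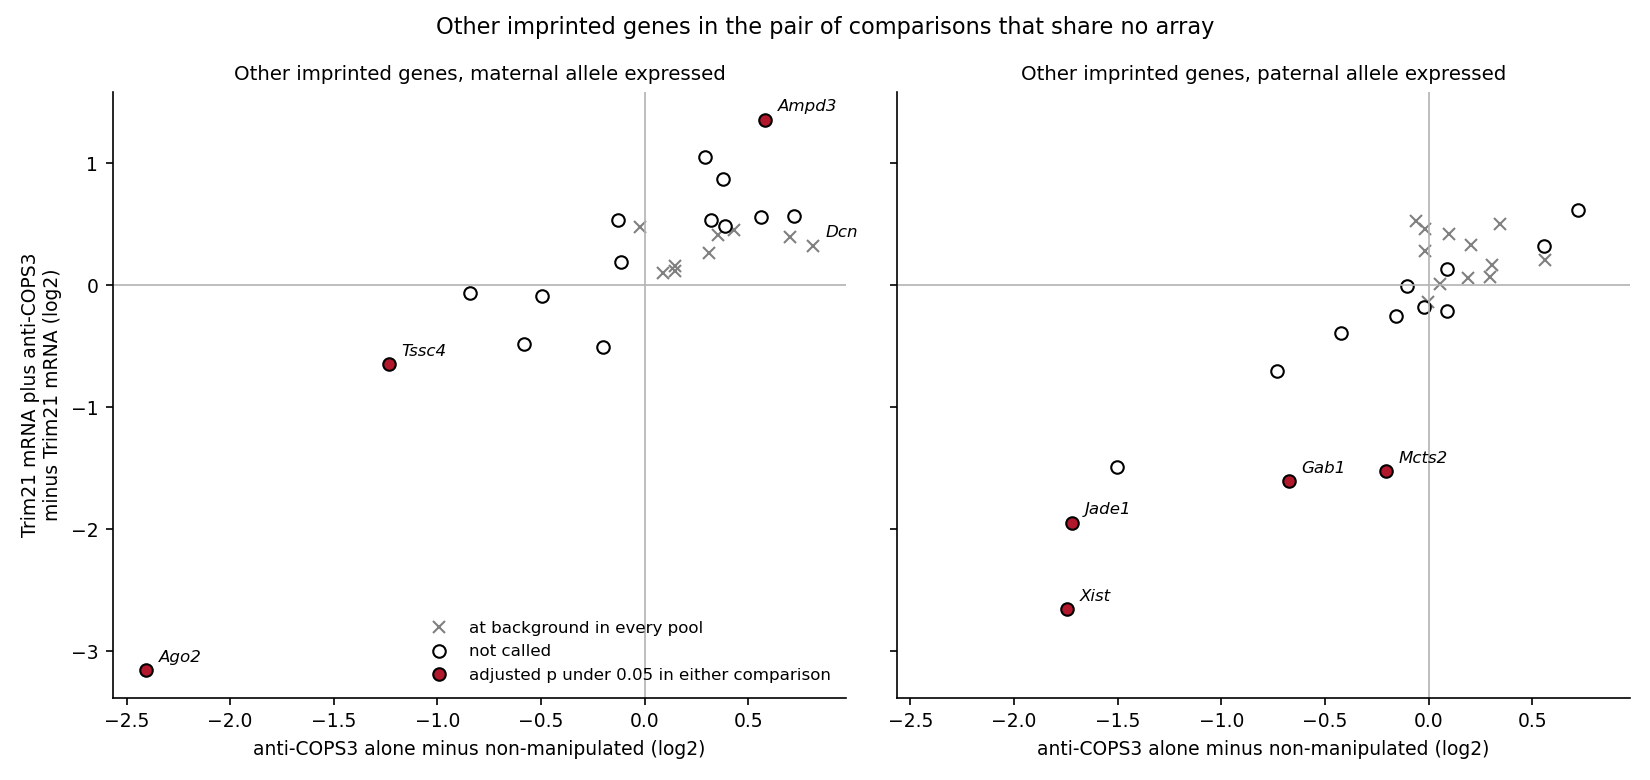
Difference in log2 level between the full treatment and Trim21 mRNA (vertical axis) against that between antibody alone and non-manipulated embryos (horizontal axis) for 24 maternally and 26 paternally expressed imprinted genes other than the members. Red points were called at an adjusted p under 0.05 in either comparison, open points in neither, and crosses were at background in every pool, Dcn being the cross that was called. Ago2 lies at -3.15 and -2.40 and Xist at -2.65 and -1.745, and most genes lie within 1 of zero on both axes.

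Factors that keep imprints through the early embryo were all measured and above background in every pool. In the full treatment against Trim21 mRNA 1 of 8 rose and 3 fell, where 8.72% of all genes rose and 14.5% fell (median -0.63, against 0.21 over all genes). Many of all genes are at low levels. Of 19110 genes with a mean level of at least 5, 2119 rose and 4614 fell there (median 0.005). With antibody alone against non-manipulated embryos none of the 8 was called, the smallest p being those of Uhrf1 (1.195 ± 0.33, adjusted p = 0.068) and Ctcf (-0.525 ± 0.16, adjusted p = 0.0868). Trim28, the corepressor that ZFP57 brings to methylated imprinting control regions, had levels of 9.90 and 9.40 in the full treatment, 11.15 and 10.93 with antibody alone, 11.54 and 11.46 with Trim21 mRNA, and 11.64 and 11.51 in non-manipulated embryos. The full-treatment pools were the lowest, and against Trim21 mRNA Trim28 fell by 1.85 ± 0.20 (adjusted p = 0.000951). Uhrf1, which brings the maintenance methyltransferase DNMT1 to DNA, rose by 1.98 ± 0.33 (adjusted p = 0.00546). Both of these calls held in all 15 alternative fits. Zfp445 (-1.675 ± 0.47, adjusted p = 0.0433) and Ctcf (-0.76 ± 0.16, adjusted p = 0.0144) were lost in 8 and 5 of them, quantile normalization and cyclic loess included. Zfp57, which reads the methylated imprint and is named for that role, differed by 0.215 ± 0.16 (adjusted p = 0.33).

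Relatives of the members were set beside them by family. Of 9 measured, 1 rose and 1 fell in the full treatment against Trim21 mRNA, near the 8.72% and 14.5% of all genes (median 0.17), and none was called with antibody alone against non-manipulated embryos (smallest p for Plagl2, 0.62 ± 0.22, adjusted p = 0.13, and M6pr, -0.54 ± 0.23, adjusted p = 0.179). Plag1, a zinc finger activator related to Plagl1, had levels of 11.77 and 11.36 in the full treatment, 9.98 and 10.42 with antibody alone, 10.06 and 10.04 with Trim21 mRNA, and 10.40 and 10.29 in non-manipulated embryos, so that the full-treatment pools alone were high. It rose there by 1.515 ± 0.21 (adjusted p = 0.00277). M6pr, the other mannose 6-phosphate receptor, fell by 1.395 ± 0.23 (adjusted p = 0.00506, or 0.052 without Trim21 mRNA replicate 1). Phlda1 (0.045 ± 0.25, adjusted p = 0.903) and Phlda3 (-0.015 ± 0.14, adjusted p = 0.944), the paralogs of Phlda2, were not called, and Phlda3 was above background in no pool.

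Of 15 genes listed for the insulin-like growth factor pathway 11 were measured, and 9 were above background in at least 1 pool. Akt1, the kinase that carries the insulin and IGF signal, rose in the full treatment against Trim21 mRNA by 0.615 ± 0.18 (adjusted p = 0.0469), a call lost in 8 of 15 alternative fits. No other gene of the list was called there, and 1 of 11 is near the 8.72% of all genes. With antibody alone against non-manipulated embryos none was called, the smallest p being those of Pik3ca (0.82 ± 0.26, adjusted p = 0.103) and Igfbp4 (0.43 ± 0.23, adjusted p = 0.253). Igf1r, named as the receptor that signals for IGF1 and IGF2, differed by 0.37 ± 0.22 in the full treatment against Trim21 mRNA (adjusted p = 0.254).

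By summed level, late 2-cell markers were highest in the full treatment, and oocyte markers were highest with antibody alone. Of 7 late 2-cell markers, 6 rose in the full treatment against Trim21 mRNA, where 8.72% of all genes rose (median difference 1.815), Tcstv3 (1.815 ± 0.21), Zscan4d (1.725 ± 0.22), Zscan4f (2.09 ± 0.31) and Zscan4c (2.125 ± 0.34) with the smallest p. Their summed level on the log2 scale was 15.9 and 16.1 in the full treatment, 14.8 and 15.1 with antibody alone, 14.1 and 14.4 with Trim21 mRNA and 14.5 in both non-manipulated pools. Of 8 oocyte markers, 2 rose (Bmp15 and Zp2) and 1 fell (Zp3), and their summed level was 18.7 and 18.1 in the full treatment against 17.7 and 17.6 with Trim21 mRNA. The calls of Bmp15, Zp2 and Zp3 were lost in 1, 4 and 8 of 15 alternative fits. Among these were median centring for Zp2, and quantile normalization and cyclic loess for Zp3. With antibody alone against non-manipulated embryos 1 of 7 late 2-cell markers (Zscan4d) and 4 of 8 oocyte markers (Gdf9, Bmp15, Oosp1 and Zp2) rose, where 2.76% of all genes rose. Each of these calls was lost after median centring and in a fit of those groups alone. Summed oocyte levels were 19.6 and 19.4 with antibody alone against 18.2 in both non-manipulated pools. These sums mostly reflect Bmp15 and Oosp1, the oocyte markers with the highest values in every pool. Zp3 alone had a negative difference in that comparison (-1.03 ± 0.40, adjusted p = 0.159 by limma). By the median of the 8 oocyte markers, non-manipulated pools (12.67 and 12.495) lay above full-treatment pools (12.39 and 11.935). Antibody-alone pools were highest by the median too (12.755 and 13.365). In the full treatment against antibody alone 5 of 7 late 2-cell markers rose, and of 8 oocyte markers 0 rose and 4 fell. Of all genes, 4.37% rose and 10.5% fell there. The part of these stage markers in the differences of Phlda2 and Igf2r was not tested.

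Some markers of other cell types were above background, Epcam and Ovgp1 of the oviduct list in all 8 pools. Of the 7 cumulus and granulosa markers measured 4 exceeded it in some pool, of 5 oviduct markers 3, of 5 blood and immune markers 1, and of 7 sperm markers 2. The summed level of the cumulus and granulosa markers was 8.19 and 8.21 in the full treatment, 8.12 and 8.91 with antibody alone, 8.44 and 8.28 with Trim21 mRNA, and 8.09 and 10.5 in non-manipulated embryos. The second non-manipulated pool stood apart through Inha, a subunit of inhibin, which was at 10.32 there against 6.30 in the first. Has2, a hyaluronan synthase, was the cumulus marker called higher in the full treatment against Trim21 mRNA (0.555 ± 0.16, adjusted p = 0.0444 by limma). That call was lost in 9 of 15 alternative fits, median centring, cyclic loess and the replicate block among them. The full-treatment levels of Has2, 6.37 and 6.51, lay close to background there (6.0 and 6.23).

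The summed level of the oviduct markers, 8.85 and 9.17 in the full treatment, 10.6 and 10.4 with antibody alone, 10.9 and 10.8 with Trim21 mRNA, and 10.8 in both non-manipulated pools, followed Epcam. Epcam, an epithelial adhesion protein, had levels of 8.14 and 8.55 in the full treatment, 10.43 and 10.17 with antibody alone, 10.75 and 10.62 with Trim21 mRNA, and 10.66 and 10.55 in non-manipulated embryos, and was called lower in the full treatment against Trim21 mRNA (-2.34 ± 0.19, adjusted p = 0.00028). The other measured markers of the list were not called there, with differences of 0.41 for Pax8, 0.30 for Msln, -0.015 for Krt8 and -0.39 for Ovgp1, and the list's median was -0.015. No blood, immune or sperm marker was called in either comparison. The part of these markers in the members' differences was not tested.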

How the data were processed

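RNA of 8 pools of mouse 2-cell embryos was measured on Affymetrix arrays with a GeneChip WT Pico kit, per the labels' protocols. Affymetrix Expression Console was used, per the submitters' processing notes, and no version, summarisation or genome build is given in the sources used here. The deposited values are on the log2 scale, 1 per row and array. The first deposited column was recorded as a score, because 1 of its cells holds a number no log2 level can be, and that row was left out of the 65956. Of the 65955 rows used, 31262 named 1 gene, 1487 several and 33206 none (the array's annotation, 1794 symbols updated). Rows with 1 gene were kept, and for 441 genes with several rows the row with the highest mean, which left 30706 genes.

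Differences were fitted with limma 3.58.1 in R 4.3.3 (lmFit, eBayes, two-sided, 4 group means, 4 residual and 6.83 total degrees of freedom), with Benjamini-Hochberg adjustment over all genes in each of 5 comparisons, and the code was tested on simulated data. Phlda2 was tested in antibody alone against non-manipulated embryos only, since that comparison shares no array with the difference it was chosen for. No filter or further scaling was applied to the main values. Alternatives were quantile normalization, median centring, cyclic loess, a mean level of at least 5, the mean of a gene's rows, the replicate number as a block, only the groups compared, and each array left out. For background they were the 99th percentile, vomeronasal receptor genes and the array median.

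The members, lists and tests were chosen with earlier results of these data known. Besides the members, the text names from each list up to 4 called genes by smallest p in the full treatment against Trim21 mRNA and in antibody alone against non-manipulated embryos, or 2 genes by smallest p in lists without a call (marker lists in part), the 5 genes most like Phlda2, and a few genes named for their role. Ampd3 was moved to the maternally expressed list, and neighbouring genes were added, after values were seen, the neighbours by RefSeq's GRCm38.p6 order. The number of arrays limits the precision.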

Additional observations from a re-analysis of the deposited data

Results flagged for a closer look

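Igf2r differed by -4.01 between the full treatment and Trim21 mRNA and by -2.66 between antibody alone and non-manipulated embryos. Day went with group and non-manipulated embryos were not injected, so the part of Trim21 mRNA in this cannot be told apart. The interaction of these differences was -1.35 ± 0.27 (adjusted p = 0.047 by limma). The range of its adjusted p over the alternatives was 0.0126 to 0.231. It was not called after quantile normalization, median centring or cyclic loess, with the replicate block, or without any single array of the full treatment, the Trim21 mRNA group or the non-manipulated group. It was called without either antibody-alone array.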

How the results depend on the processing

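The difference of Igf2r between the full treatment and Trim21 mRNA kept its direction and its call under every alternative (-4.345 to -3.50, adjusted p 1.95e-05 to 0.00191). With antibody alone against non-manipulated embryos it lay between -2.95 and -2.40 and was not called in the fit of those groups alone. Phlda2, given with no test there, lay between -5.265 and -4.23 in the full treatment against Trim21 mRNA and between -5.10 and -4.45 against antibody alone. With antibody alone against non-manipulated embryos Phlda2 differed by 1.06 after quantile normalization, 1.01 after cyclic loess and 0.785 with the filter on low levels, called in each (adjusted p = 0.0221, 0.0234 and 0.0473). It was not called after median centring (0.495, adjusted p = 0.289), with the mean of a gene's rows, with the replicate block (adjusted p = 0.0818) or in a fit of those groups alone (adjusted p = 0.203). It differed by 0.535 to 1.035 with an array left out, called only without antibody-alone replicate 2 (adjusted p = 0.038). Igf2 in the full treatment against antibody alone turned direction with the antibody-alone array left out, at 0.635 without replicate 1 and -0.765 without replicate 2.

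With only the groups compared, limma called 10891 genes in the full treatment against Trim21 mRNA, 0 with antibody alone against non-manipulated embryos (2311 higher and 3503 lower at an unadjusted p under 0.05), 2520 with Trim21 mRNA against non-manipulated embryos and 1408 in the full treatment against antibody alone, and 4, 0, 1 and 0 members. Trim21 mRNA against non-manipulated embryos gave 0 genes after quantile normalization, median centring and cyclic loess, with the filter and with the replicate block. With an array left out the counts ran from 3367 to 14194, 94 to 13795, 0 to 1, 2490 to 10446 and, for the interaction, 99 to 5663. The highest counts came without an antibody-alone array. Members called numbered 4 in the full treatment against Trim21 mRNA after quantile normalization and cyclic loess, 1 after centring and with the replicate block, and 1 to 4 with an array left out. With antibody alone against non-manipulated embryos they numbered 2 after quantile normalization, cyclic loess and the filter, and 1 to 4 with an array left out. In the full treatment against antibody alone they numbered 1 after centring and 1 to 4 with an array left out. For the interaction they numbered 0 after each rescaling and with the replicate block, and 0 to 3 with an array left out. With the 99th percentile as background, 4 members exceeded it in both antibody-alone pools. The share of calls that were higher in the full treatment against Trim21 mRNA was 37.6%, against 45.9% after quantile normalization, 43.2% after cyclic loess and 14.04% after centring, and with antibody alone against non-manipulated embryos 27.4%, against 42.2%, 41.9% and 11.8%. The median difference of all genes, 0.21 and 0.18 in these comparisons, was -0.125 and -0.11 after centring. In 21 of 592 recomputed member differences an uncalled difference changed sign, over 6 members. The cause of these changes was not tested. Replicate numbers did not pair the pools: deviations of pools with the same number correlated at -0.191 to 0.143 between groups. Agreement of pools limits precision most with antibody alone, where the median gap between pools was 0.42 over all genes, against 0.10 in non-manipulated embryos.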
